A study of Homo sapiens with 16 samples.

Results

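The CAS (Crk-associated substrate) family has 4 genes in the human genome, NEDD9, BCAR1, EFS and CASS4, and their RNA was measured in SK-N-BE(2) neuroblastoma cells with and without added forms of HIF-2α. The members were taken by symbol from the table of gene counts, which holds 63187 genes. The family was selected on NEDD9, for its counts and CPM across the groups and batches of these libraries, so the differences of NEDD9 are given as a description, with no p-value; where it is listed as called under a setting, nothing is read from the call. Of the 4 members, NEDD9 and BCAR1 passed the filter on low counts and were among the 19530 genes tested. EFS had no count in any library and CASS4 had at most 7.

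CAS proteins are scaffolds without enzyme activity. Their SH3 domain binds focal adhesion kinase, and their substrate domain carries repeated tyrosines that SRC-family kinases phosphorylate, which creates docking sites for CRK and, through DOCK proteins, activates RAC at the cell edge. NEDD9, also called HEF1 or CAS-L, is known for its part in cell migration and invasion and, with the kinase AURKA, in mitosis and in the disassembly of the primary cilium. BCAR1 is p130Cas, the widely expressed member, EFS is known from T cells, and CASS4 is the least studied of the family. HIF-2α, the product of EPAS1, is an oxygen-regulated transcription factor that pairs with ARNT and binds DNA at a short core, ACGTG or GCGTG, within hypoxia response elements.

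The 16 libraries formed 4 groups of 4, all of SK-N-BE(2), a human neuroblastoma line with amplified MYCN. WT libraries came from cells that the labels call wild type. FL libraries came from cells transfected with full-length HIF-2α, and NCTAD and cIDR libraries from cells transfected with the forms written ΔN-CTAD and Δc-IDR in the design text. All groups grew at 21% oxygen with 10% serum. Replicates 1 to 4 of each group carry the batch numbers 1 to 4, so each batch holds 1 library of each group; what a batch was (a day, a culture or a run) is not given in the sources used here. Neither are the vector, the promoter, the time after transfection, the use of clones or pools, or an empty vector in the WT cells, so that transfection and HIF-2α cannot be told apart. Separate cultures are not stated, and the spread between libraries may in part be technical.

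Libraries held 38.6 to 56.1 M counts (M stands for mega), and 3 counts, the limit that a count of 0 allows, corresponded to 0.0528 to 0.0812 CPM (counts per 1 M counts, here scaled by TMM). EPAS1 checked the labels of WT against the transfected libraries: it lay at 13.0 to 28.1 CPM in WT and at 1320 to 5852 CPM in the transfected libraries, with no overlap. The forms overlapped, at 1691 to 3580 CPM in FL, 1320 to 4228 in NCTAD and 2189 to 5852 in cIDR. The level of EPAS1 thus does not check which form a library held. All 8 adrenergic neuroblastoma markers passed the filter, with a summed level of 3186 to 3865 TPM (transcripts per 1 M transcripts, a level per length), although TH was low at 0.856 to 10.2 CPM. None of 6 leukocyte markers passed the filter and their summed level was at most 0.894 TPM. In a bulk sample, fewer cells with a transcript and less of it per cell cannot be told apart.

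In RefSeq's annotation of GRCh38.p14, NEDD9 (ENSG00000111859.17 in the table) lies on the minus strand at chr6:11183298-11382348, a gene of 199051 bp with 3 annotated starts in the promoter table, a pair of distal ones at 11382348 and 11382310 and a proximal one at 11232668. BCAR1 (ENSG00000050820.17) lies at chr16:75228181-75268007 on the minus strand, EFS (ENSG00000100842.13) at chr14:23356406-23365172 on the minus strand and CASS4 (ENSG00000087589.17) at chr20:56412036-56460382. The windows around the NEDD9 starts are shown because NEDD9 is the member that differed between WT and HIF-2α libraries. They were searched on both strands for the cores named above. The first core can overlap its own reverse complement, which is not the case in the site below. The 250 bases before the start at 11382348 (chr6:11382349-11382598, minus strand) and before the proximal start (chr6:11232669-11232918, minus strand) hold neither. A single match, to the core given in capitals below, was found at chr6:11382305-11382334; the core begins 12 bases before the start at 11382310 and at base 27 counted from 1 at the start at 11382348.
NEDD9 site near the distal starts: cactcacatccgACGTGtgtggttgctcag
NEDD9 before 11382348: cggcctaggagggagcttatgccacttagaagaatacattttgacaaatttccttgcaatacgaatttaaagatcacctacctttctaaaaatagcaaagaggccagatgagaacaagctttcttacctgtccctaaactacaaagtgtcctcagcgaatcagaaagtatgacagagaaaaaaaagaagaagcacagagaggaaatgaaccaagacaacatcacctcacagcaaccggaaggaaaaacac
NEDD9 before 11232668: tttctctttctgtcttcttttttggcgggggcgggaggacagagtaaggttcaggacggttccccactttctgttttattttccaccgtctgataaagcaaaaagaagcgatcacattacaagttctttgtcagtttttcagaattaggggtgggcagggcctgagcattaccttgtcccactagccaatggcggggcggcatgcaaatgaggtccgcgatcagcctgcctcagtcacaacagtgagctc

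ACGTG occurs in 21.4% and GCGTG in 36.5% of the 34943 RefSeq promoter windows of 300 bases, so a match in a window is common. Of the other members, BCAR1 had matches in 3 of its 5 windows and EFS 1 in its only window. CASS4 has no window in the table. A match is a stretch of letters and not a measured binding site, and the counts per gene do not show which NEDD9 start was used.

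Per length, the 4 scaffolds stood at very different levels. BCAR1 was at 27.0 to 31.7 TPM in the 16 libraries, with a mean of 28.9 ± 1.37 (SD, n = 16). NEDD9 had a mean of 0.314 ± 0.312 TPM (SD, n = 16) and ranged from 0 to 1.21. CASS4 ranged from 0.0104 to 0.0509 TPM and EFS was listed at 0 throughout. BCAR1 was thus above NEDD9 in each of the 16 libraries, and its lowest TPM was above the highest of NEDD9. CASS4 lay above NEDD9 in the WT libraries of batches 1, 3 and 4, at 0 to 7 counts per gene and library, and below it in every transfected library.

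**Figure D1:**
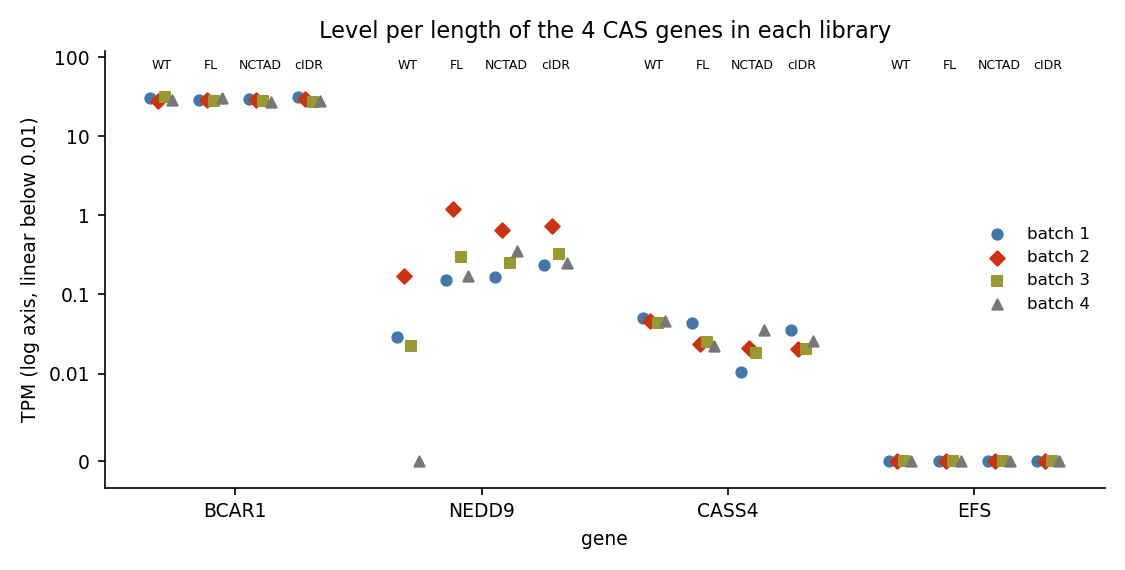
Level per length (TPM, log axis that is linear below 0.01) of the 4 CAS genes in each of the 16 libraries, by group from left to right and by batch as the marker. BCAR1 sits near 28.9 TPM in every library, NEDD9 spreads from 0 to 1.21, CASS4 stays at or below 0.0509 and EFS is at 0.

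NEDD9 was low in WT cells and higher in the cells with each form of HIF-2α. The WT libraries of batches 1 to 4 held 3, 27, 2 and 0 counts, or 0.0626, 0.503, 0.0483 and 0 CPM. FL held 22, 190, 38 and 25 counts, or 0.534, 3.72, 0.817 and 0.498 CPM. NEDD9 in FL thus stood above WT of the same batch in 4 of 4 batches, and its batch 2 library was the highest of all 16. NCTAD held 26, 87, 45 and 53 counts, or 0.604, 1.76, 0.814 and 1.14 CPM. In cIDR there were 26, 131, 23 and 36 counts, or 0.704, 2.31, 0.477 and 0.813 CPM. These libraries, too, were above WT of their own batch in 4 of 4 batches. Over all batches WT overlapped the transfected libraries through its batch 2 library, which lay at 0.503 CPM, above FL of batch 4 (0.498) and cIDR of batch 3 (0.477). In batches 1, 3 and 4 the groups did not overlap, with 0 to 0.0626 CPM in WT and 0.477 to 1.14 CPM in the transfected libraries.

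**Figure D2:**
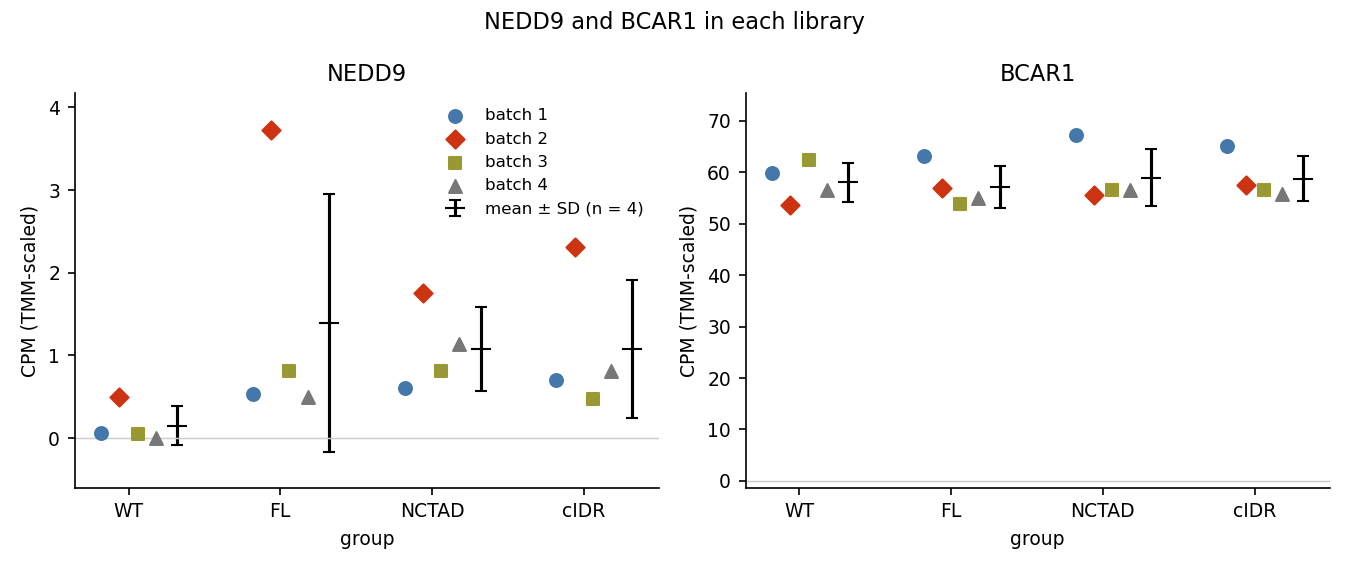
CPM of NEDD9 (left) and BCAR1 (right) in each library by group, with the batch as the marker and the group mean ± SD (n = 4) beside it. NEDD9 is highest in batch 2 of every group and near 0 in WT of the other batches, while BCAR1 lies between 53.7 and 67.2 CPM in all groups.

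Within a batch the ratio to WT was set by few WT counts, and its 95% interval (exact, conditional on the summed count, counting error only) was wide. For FL, NEDD9 was 8.53 times WT in batch 1 (2.56 to 44.5), 7.40 times in batch 2 (4.93 to 11.5) and 16.9 times in batch 3 (4.38 to 145). In batch 4 the WT count of 0 was set to the floor of 3 counts in that library, and FL stood at 7.56 times this floor. Such a value leaves out the counting error of the transfected library. For NCTAD the ratios were 9.64 (2.96 to 49.8), 3.49 (2.25 to 5.60) and 16.9 (4.41 to 144), and 17.3 times the floor in batch 4. For cIDR they were 11.2 (3.44 to 58.0), 4.59 (3.01 to 7.22) and 9.89 (2.44 to 86.5), and 12.3 times the floor in batch 4. Batch 2, with the most counts, gave the narrowest interval in each comparison. The mean within-batch difference on the log2 CPM scale (prior count of 2) was 3.04 ± 0.53 for FL, 3.10 ± 1.30 for NCTAD and 2.95 ± 0.97 for cIDR (SD, n = 4 batches). The 3 comparisons share the WT libraries.

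A fit of all 16 libraries with edgeR gave NEDD9 log2 fold changes against WT of 3.10 ± 0.91 (SE) for FL, 2.73 ± 0.91 for NCTAD and 2.74 ± 0.91 for cIDR. With the batch as a replicate block they were 3.17 ± 0.49, 3.21 ± 0.49 and 3.01 ± 0.49. At an adjusted p under 0.05, 0 of the 2 tested members were called against WT without the block, against 0.0102%, 0.0256% and 0.0102% of all tested genes called for FL, NCTAD and cIDR. With the block, 1 member (NEDD9) was called in each, against 0.102%, 0.456% and 0.486% of all tested genes. Leaving out batch 2, the library set with the highest NEDD9, gave larger differences without the block, 3.94 ± 0.59 for FL, 4.41 ± 0.58 for NCTAD and 4.06 ± 0.59 for cIDR, as WT then held 5 counts in 3 libraries. NEDD9 was then called in all 3 comparisons, against 0.0524%, 0.204% and 0.173% of all tested genes, but with the block and without batch 2 it was not called for FL. With each library left out in turn it was called in 0 of 8 fits of each comparison without the block, and with it in 4 of 8 for FL, 8 of 8 for NCTAD and 7 of 8 for cIDR. The FL difference without the block then ranged from 1.93, without FL of batch 2, to 5.14, without WT of batch 2. Since NEDD9 was chosen with these contrasts known, the calls are listed only to show the settings.

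Between the forms of HIF-2α, the NEDD9 values overlapped. The group means were 1.39 ± 1.56 CPM in FL, 1.08 ± 0.503 in NCTAD and 1.07 ± 0.833 in cIDR, and 0.153 ± 0.234 in WT (SD, n = 4). NCTAD was above FL in 2 of 4 batches and below it in 2, and so was cIDR against FL and against NCTAD. In batch 2 NCTAD was at 0.472 times FL (0.362 to 0.612), and in batch 4 at 2.29 times FL (1.40 to 3.85). With the block the log2 fold change, given as a description, was 0.044 ± 0.38 (SE) when NCTAD was set against FL, and in cIDR it was −0.16 ± 0.40 against FL and −0.20 ± 0.40 against NCTAD. Of all tested genes 0%, 0.0307% and 0.00512% were called in these comparisons with the block. The RNA of EPAS1 was not at one level in the forms. With the block its log2 fold change was 0.095 ± 0.30 (SE) in NCTAD against FL. In cIDR it was 0.78 ± 0.30 against FL and 0.69 ± 0.30 against NCTAD, and none of these was called. The part of this in the NEDD9 values was not tested.

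**Figure D3:**
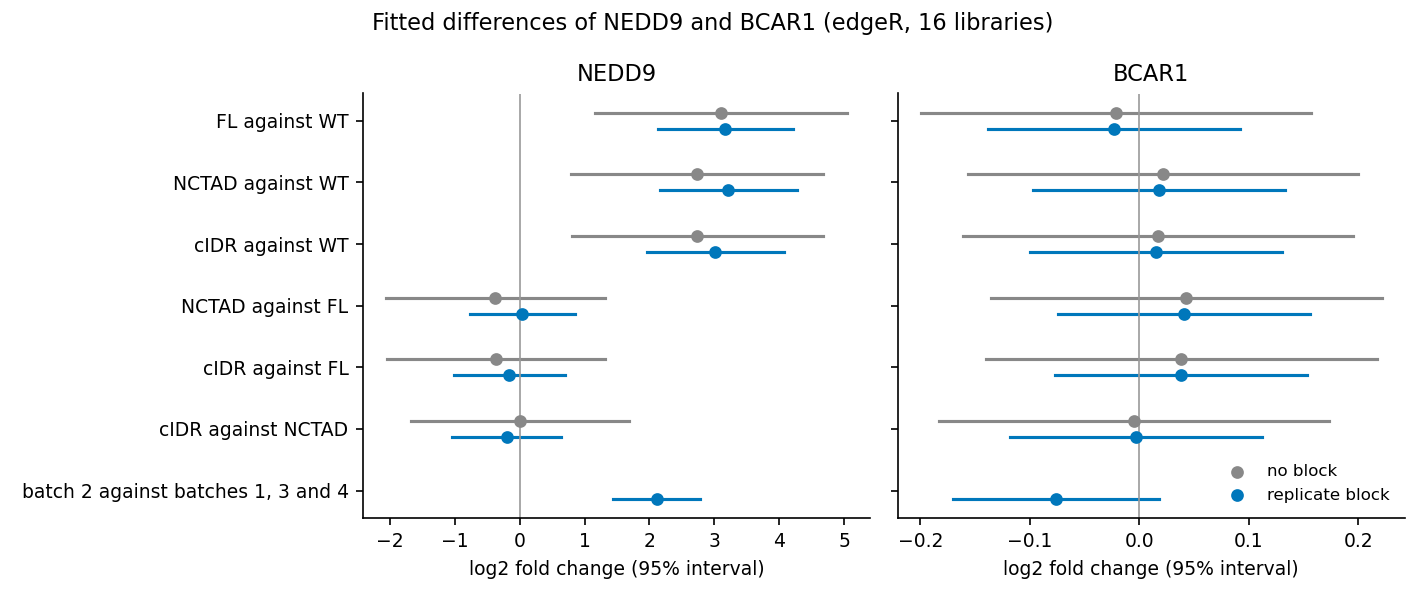
Log2 fold change with its 95% interval of NEDD9 (left) and BCAR1 (right) in the 6 group comparisons and in batch 2 against the others, from edgeR over 16 libraries, without (grey) and with (blue) the batch as a replicate block. The NEDD9 values against WT lie between 2.73 and 3.21, those between the constructs span 0, and every BCAR1 interval spans 0 on an axis that reaches about 0.2 only.

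NEDD9 also differed between batches. In batch 2 it was the highest of the 4 libraries in each group: WT had 0.503 CPM against 0 to 0.0626, FL had 3.72 against 0.498 to 0.817, NCTAD had 1.76 against 0.604 to 1.14 and cIDR had 2.31 against 0.477 to 0.813. Across groups the batches overlapped, since WT of batch 2 was below 7 of the 9 transfected libraries of the other batches. Set against the pooled counts of batches 1, 3 and 4, the ratio was largest in WT, at 13.6 (5.15 to 45.1), then 6.04 for FL (4.65 to 7.89), 3.51 for cIDR (2.65 to 4.67) and 2.05 for NCTAD (1.54 to 2.72). The fitted log2 fold change of batch 2 was 2.11 ± 0.31 (SE). Here and below, the SE, intervals and p-values of this contrast come from the spread of libraries within batches. Batch 2 is a single batch, so they do not measure the spread between batches. Of all tested genes 53.9% were called in this contrast, 27.7% higher and 26.1% lower. NEDD9 was among them, but it was selected on this contrast, so nothing is read from its call. Known hypoxia-response genes moved with batch 2 as well: 12 of 14 were higher at adjusted p under 0.05 in edgeR's quasi-likelihood test, with a median log2 fold change of 0.88 against 0.035 over all tested genes, and their summed level was 1375 to 1893 TPM in batch 2 and 620 to 858 TPM in the other batches. Batch 2 was singled out with earlier results of these data known, so these calls, too, are a description. EPAS1 itself had a log2 fold change of −0.45 ± 0.26 (SE) in batch 2 and was not called. Its batch 2 library was the lowest of the group in NCTAD and cIDR (1320 and 2189 CPM). It lay within the range of the others in FL (2001 CPM) and was the highest in WT (28.1 CPM). Against WT, 0 of the 14 were called for FL, NCTAD or cIDR without the block, and with it 1, 6 and 8 were called higher, beside 0.102%, 0.456% and 0.486% of all tested genes. Of the 8 adrenergic markers, 4 were called higher and 2 lower in batch 2, among them TH (log2 fold change 2.15 ± 0.12, SE), DBH (0.69 ± 0.052) and GATA3 (−0.80 ± 0.049). TH and DBH, enzymes of catecholamine synthesis, were also called higher against WT with the block, for NCTAD (1.27 ± 0.17 and 0.61 ± 0.067) and cIDR (1.06 ± 0.17 and 0.51 ± 0.066), while for FL (0.83 ± 0.17 and 0.36 ± 0.066), and in all 3 comparisons without the block, they were not called. Of other cell types, 6 mesenchymal markers summed to 42.7 to 49.0 TPM in batch 2 and 27.1 to 36.3 TPM in the others, most of it PDGFRB, with 2 of 4 tested markers called higher (PDGFRB and COL1A1) and 1 lower (SNAI2), and with PRRX1 at most 0.166 TPM and COL1A2 at most 0.125 TPM. The 4 Schwann markers summed to 6.60 to 8.50 TPM against 3.98 to 6.79 TPM, with 1 of 3 tested called higher, and with SOX10 at most 0.0435 TPM. The part of these genes in the NEDD9 differences was not tested.

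The level of NEDD9 depended somewhat on the scale. Each estimated count was divided by its TPM and by a factor for the library, the median of this quotient over the tested genes after each gene was centred on its own mean, which gives the transcript length that entered the TPM, here relative to the gene's median over libraries. This length was between 0.981 and 1.01 in 9 libraries and lower in 6: 0.700 and 0.703 in WT of batches 1 and 3, 0.869 in FL of batch 3, 0.867 in NCTAD of batch 2, 0.892 in cIDR of batch 1 and 0.444 in cIDR of batch 3. WT of batch 4, without counts, gave none. As a result cIDR of batch 3, the lowest transfected library in CPM, stood at 0.329 TPM, above cIDR of batches 1 and 4 at 0.239 and 0.248 TPM. On the TPM scale WT of batch 2, at 0.169, lay above FL of batch 1 at 0.150 and NCTAD of batch 1 at 0.168. For BCAR1 the same length stayed between 0.968 and 1.03 in the 16 libraries.

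BCAR1, the abundant member, did not differ between the groups beyond the spread of the libraries. WT stood at 59.8, 53.7, 62.3 and 56.5 CPM in batches 1 to 4, and FL at 63.1, 56.9, 53.9 and 55.1 CPM. NCTAD stood at 67.2, 55.5, 56.6 and 56.5 CPM, and cIDR at 65.1, 57.5, 56.5 and 55.8 CPM, from 2407 to 3269 counts per library. The groups overlapped, and batch 1 gave the highest value in all but WT. The log2 fold change against WT was −0.021 ± 0.084 (SE) for FL, 0.022 ± 0.084 for NCTAD and 0.017 ± 0.084 for cIDR, with 95% intervals of −0.20 to 0.16, −0.16 to 0.20 and −0.16 to 0.20 (edgeR quasi-likelihood test, adjusted p = 1 for FL and NCTAD and 1.00 for cIDR). With the block the widest of the 3 intervals was −0.14 to 0.092, for FL. Within batches, the ratio of FL to WT was 1.05, 1.06, 0.864 and 0.975, above WT in 2 of 4 batches. NCTAD was above WT in 3 of 4 batches and cIDR in 2 of 4. Between constructs, cIDR was above FL in 4 of 4 batches, by a mean of 0.038 ± 0.025 on the log2 CPM scale (SD, n = 4; range 0.017 to 0.070), a difference that edgeR did not call with the block (95% interval −0.077 to 0.15). Batch 2 differed from the others by a log2 fold change of −0.076 ± 0.044 (95% interval −0.17 to 0.018, adjusted p = 0.160 by edgeR), and from batch 1 alone by −0.19 ± 0.054 (adjusted p = 0.00936), where BCAR1 was called with 45.8% of all tested genes.

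CASS4 was near the detection limit. WT libraries held 7, 4, 3 and 6 counts, FL 4, 2, 2 and 3, NCTAD 1, 2, 3 and 5, and cIDR 4, 2, 3 and 2. The WT libraries were at 0.0724 to 0.146 CPM and the transfected ones at 0.0232 to 0.108 CPM, with overlap. Without the low-count filter (36718 genes) CASS4 had log2 fold changes against WT of −0.84 ± 0.65, −0.89 ± 0.65 and −0.78 ± 0.66 (SE) for FL, NCTAD and cIDR, each at adjusted p = 1 by edgeR, and of −0.70 ± 0.69 in batch 2 (adjusted p = 0.564). With the block the values against WT were −0.84 ± 0.80, −0.85 ± 0.80 and −0.75 ± 0.80 (SE), not called either. Within each batch WT had the highest CPM of the 4 libraries, at 3 to 7 counts in WT and 1 to 5 in the transfected ones. That order was not tested, and no difference was called at these counts. EFS, at 0 counts in all 16 libraries, was at most at the limit of 0.0528 to 0.0812 CPM per library.

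The partners of the scaffolds were read from 6 lists of 48 genes, of which 46 were tested; the adaptor SH2D3A and the integrin ITGA5 were too low. Against WT, 0 of 46 were called for FL, NCTAD or cIDR with edgeR's quasi-likelihood test, with the block or without it. Of all tested genes 0.0102% to 0.0256% were called without the block and 0.102% to 0.486% with it, so a count of 0 is near the background. At an unadjusted p under 0.05 there were 0, 0 and 1 without the block and 0, 3 and 3 with it, and DESeq2 called 0 in each, with the block or without it. The median log2 fold changes with the block were 0.0035, 0.034 and 0.0080, beside 0.011, 0.016 and 0.0079 over all tested genes.

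In batch 2 against the other batches 27 of the 46 were called, 8 higher and 19 lower. Of all tested genes 27.7% were called higher and 26.1% lower. The partners' share of 58.7% called in either direction is near the 53.9% of all tested genes, while their calls lean more to lower. That lean was not tested and is not read as a result about the partners as a set. The genes below are given singly. The 46 had a median log2 fold change of −0.10 beside 0.035 over all tested genes. All adjusted p-values that follow come from the same edgeR quasi-likelihood fit. They measure the spread of libraries within batches and not that between batches, since batch 2 is a single batch.

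Of 9 kinases that bind or phosphorylate CAS proteins, 4 were higher in batch 2 and 1 lower, beside 27.7% and 26.1% of all tested genes. PTK2B, the FAK-related kinase PYK2, was higher by 0.54 ± 0.12 on the log2 scale (adjusted p = 0.00136), at 3.87 to 5.32 CPM against 2.49 to 4.37. SRC was higher by 0.42 ± 0.051 (adjusted p = 8.1e-06), at 27.9 to 34.2 CPM against 20.4 to 26.9, and FYN, of the same family, by 0.23 ± 0.039 (adjusted p = 0.000169). Of 4 phosphatases, 1 was higher and 2 lower. PTPN12, or PTP-PEST, which removes phosphate from CAS proteins, was higher by 0.45 ± 0.038 (adjusted p = 2.1e-07), at 74.9 to 80.9 CPM against 50.9 to 60.1. PTPN1, or PTP1B, had a log2 fold change of −0.20 ± 0.057 (adjusted p = 0.00927) and PTPRA one of −0.11 ± 0.041 (adjusted p = 0.0389). The batches did not overlap for SRC, FYN, PTPN12 and PTPN1, and overlapped for PTK2B and PTPRA. Both tested NSP adaptors, which bind the carboxyl end of CAS proteins, were not called: BCAR3 at 0.034 ± 0.045 and SH2D3C at −0.078 ± 0.069.

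Downstream of phosphorylated CAS, 1 of 13 genes of the CRK, DOCK and RAC chain was higher in batch 2 and 7 were lower. Of all tested genes 27.7% were called higher and 26.1% lower. The 61.5% of the chain called in either direction is near the 53.9% of all tested genes, and the chain is not read as a set. RAPGEF1, a CRK-bound exchange factor for RAP proteins, was at −0.34 ± 0.059 (adjusted p = 0.000204), and the GTPase RAP1B at −0.28 ± 0.055 (adjusted p = 0.000587). ELMO2, the partner of DOCK proteins, was at −0.25 ± 0.044 (adjusted p = 0.000238), with 25.0 to 28.4 CPM in batch 2 and 28.7 to 33.5 in the others. Of 11 tested focal adhesion partners, 1 was higher and 5 lower, beside the same shares of all tested genes. PARVA, the ILK-bound parvin, was at 4.69 to 5.86 CPM against 7.45 to 11.5, a log2 fold change of −0.86 ± 0.090 (adjusted p = 1.5e-06). The LIM protein ZYX had one of −0.39 ± 0.056 (adjusted p = 3.6e-05), and the paxillin relative TGFB1I1 one of 0.24 ± 0.050 (adjusted p = 0.000782).

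Of 7 genes tied to the roles of NEDD9 in mitosis, the cilium and its own turnover, 1 was higher in batch 2 and 4 lower. Of all tested genes 27.7% were called higher and 26.1% lower. ID2, an inhibitor of basic helix-loop-helix factors, had the largest difference of the 6 lists, −1.21 ± 0.044 (adjusted p = 3.4e-11), at 79.3 to 85.7 CPM against 147 to 214. TPX2, the activator of AURKA on the spindle, was at −0.22 ± 0.036 (adjusted p = 0.000122), and ITCH, a ubiquitin ligase, at −0.21 ± 0.060 (adjusted p = 0.00971). With limma on log2(TPM + 1), which moves with transcript length, 12 of the 46 were called in place of 27, beside 43.1% of all genes.

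**Figure D4:**
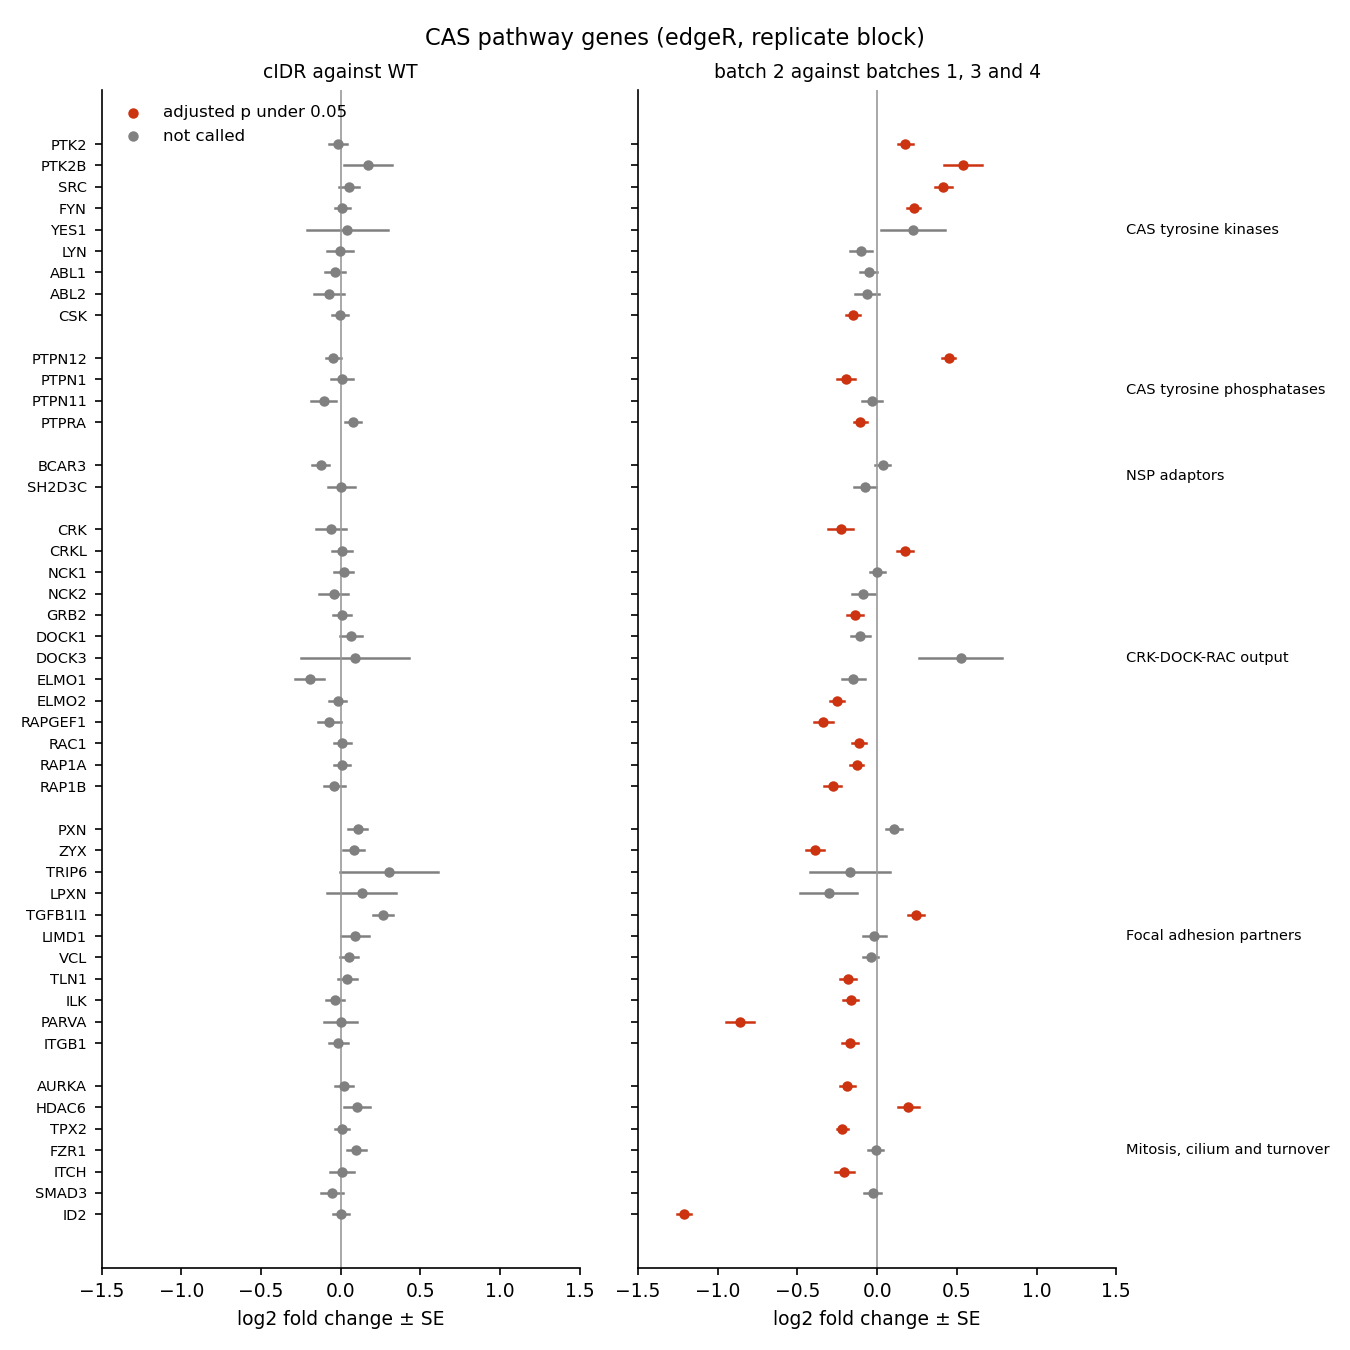
Log2 fold change ± SE of the 46 tested partner genes, by list, for cIDR against WT (left) and for batch 2 against the other batches (right), from edgeR with the replicate block. On the left no gene is called. On the right 8 are called higher and 19 lower (red, adjusted p under 0.05), beside 27.7% higher and 26.1% lower of all tested genes. ID2 at −1.21 and PARVA at −0.86 lie farthest to the left.

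The genes whose pattern was closest to NEDD9 were found by the root-mean-square difference of log2 CPM over the 16 libraries, after each gene was centred on its own mean; smaller is closer. TRIM29, a tripartite-motif protein, was closest at 0.51, followed by ELFN1 (0.66), FGD5 (0.74), RSPH9 (0.80) and RSPO1 (0.80), while a gene without any change would score 1.65, the spread of NEDD9 itself, and the median of all tested genes was 1.67. TRIM29 was far more abundant: over batches 1, 3 and 4 it had a mean of 29.5 CPM in cIDR, 18.4 in NCTAD, 17.1 in FL and 1.63 in WT, and in batch 2 it was at 71.8, 40.1, 92.1 and 19.1 CPM. As for NEDD9, batch 2 was the highest in each group, and FL was the highest of the 4 groups in batch 2. ELFN1 was, in the same order, at 1.81, 4.04, 1.80 and 0.316 CPM in batches 1, 3 and 4, and at 6.87, 9.51, 11.7 and 2.31 CPM in batch 2. Centred within each batch, which leaves only the differences between groups, the closest genes were TRIM29 (0.51), ELFN1 (0.64), NDRG1 (0.64), CABP7 (0.67) and LINC02207 (0.68), where no change would score 1.39 and the median of all tested genes was 1.40. NDRG1, a hypoxia-response gene, was at 43.0, 31.5, 19.0 and 4.40 CPM in that order in batches 1, 3 and 4, and at 233, 161, 210.4 and 109 CPM in batch 2. Likeness is over libraries that share the groups and batches, and FGD5, RSPH9, RSPO1 and LINC02207, like NEDD9, have low counts.

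**Figure D5:**
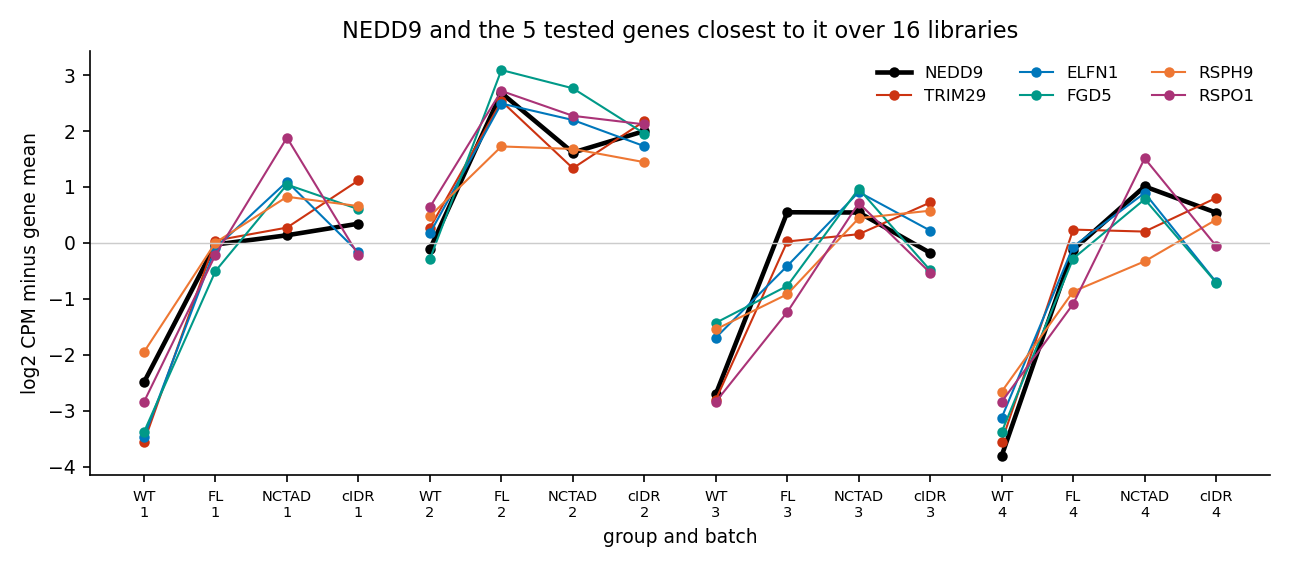
Log2 CPM minus the gene's mean over 16 libraries (prior count of 2) for NEDD9 and the 5 tested genes closest to it, with libraries ordered by batch and then by group. All 6 genes are lowest in WT of batches 1, 3 and 4 and highest in the transfected libraries of batch 2.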

How the data were processed

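RNA was sequenced from 16 libraries of SK-N-BE(2) cells, in 4 groups of 4, as stranded poly(A) libraries (input 250 ng, amplified over 13 cycles), per the labels' protocols. Salmon made the unscaled estimated counts that the authors deposited, as the name of the table says; in the deposited TPM values each library has an equal sum. The submitters' processing notes name fastp, STAR, Salmon, featureCounts and GRCh38, without versions; the annotation release is not given in the sources used here. Column names begin with BE2c where the labels give SK-N-BE(2), call WT control and FL wild type, and shorten N-CTAD to NTAD; groups follow the sample titles.

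Counts (15.5% not whole) were rounded, genes filtered with filterByExpr by group, and groups tested by quasi-likelihood in edgeR 4.0.16 (R 4.3.3, TMM, 16 libraries, group as the only term). A gene with a p under 0.05 after Benjamini-Hochberg adjustment over all 19530 tested genes was called. The SE came from dividing each log2 fold change by the root of its F. CPM use TMM-scaled totals. Batch 2 was set against the mean of batches 1, 3 and 4 in the model of group and batch, whose residual spread is that of libraries within batches. The labels give the replicate number as the batch, which pairs the libraries; deviations from the group mean correlated with a mean r of 0.308 within 24 same-batch pairs (lowest 0.0674) and −0.0945 between batches. The biological coefficient of variation was 0.245 without and 0.108 with the replicate block. No libraries of a group were copies (chi-square per degree of freedom at least 7.24). Interval bounds for ratios of counts cover counting error only, since the reads carry no molecular identifiers.

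The members, lists, batch 2 and rule for named genes were chosen with earlier results of these data known. Named were the 4 members, EPAS1, from each partner list up to 4 genes called against WT with the block (none were) and up to 3 with the largest called batch 2 difference (mean log2 CPM 1 or more), and the 5 genes closest to NEDD9 by each centring; NSP adaptors and markers named beside them were chosen after their values were seen. Alternatives were the block, median-of-ratios size factors, DESeq2 1.42.0, no filter, at least 10 counts in every library, limma 3.58.1 on log2(TPM + 1) and log2(TPM + 0.1), only the 8 libraries compared, no batch 2, single batches, and each library left out; DESeq2 and left-out libraries with the block were added after seeing the data. The edgeR steps were tested on simulated data. Promoter sequences and gene positions are RefSeq's for GRCh38.p14, matched by symbol (4 of 4 positions, 3 of 4 promoters). Figures were drawn with matplotlib 3.10.9.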

Additional observations from a re-analysis of the deposited data

Results flagged for a closer look

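Of 24 sets of 4 libraries (NEDD9, BCAR1 and CASS4 in each group and each batch), 4 held a library far from the other 3, by a gap to its nearest neighbour that was a larger share of the whole range than Dixon's critical value for 4 samples; chance gives about 1 in 20. NEDD9 in WT of batch 2, at 0.503 CPM, stood apart from the other WT libraries by 0.875 of the range, and NEDD9 in FL of batch 2, at 3.72 CPM, by 0.901. Both restate the batch 2 values of NEDD9 on which the family was selected, so the chance rate does not apply to them and they support nothing. BCAR1 in NCTAD of batch 1, at 67.2 CPM, stood apart by 0.906 of a range that began at 55.5 CPM. CASS4 in WT of batch 2, at 0.0745 CPM from 4 counts, stood apart from the other libraries of that batch, each at 2 counts, by 0.868.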

How the results depend on the processing

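NEDD9 was chosen with these contrasts known, so its calls are listed only to show the settings and nothing is read from them. The replicate block (batch in the model) raised the members called against WT from 0 to 1, NEDD9, for FL, NCTAD and cIDR alike. Of all tested genes 0.102%, 0.456% and 0.486% were then called. DESeq2 with the block gave 1, 1 and 1 members. So did leaving out batch 2 without the block, beside 0.0524%, 0.204% and 0.173% of all tested genes. With the block and without batch 2, 1 member was called for NCTAD and for cIDR and 0 for FL. With each library left out in turn, 0 members were called without the block, and with it 0 to 1 for FL, 1 to 1 for NCTAD and 0 to 1 for cIDR. The NEDD9 log2 fold change then ranged from 1.93 (without FL replicate 2) to 5.14 (without WT replicate 2) for FL, from 2.34 (without WT replicate 4) to 4.77 for NCTAD and from 2.03 (without cIDR replicate 2) to 4.77 for cIDR, the last 2 highest without WT replicate 2; with the block the ranges were 2.84 to 4.21, 2.85 to 4.21 and 2.67 to 4.03, and NEDD9 was called in 4, 8 and 7 of 8 fits. In batch 2 the members called were 1 with any library left out, 0 with at least 10 counts in every library, a filter that removed NEDD9, and 2 against batch 1 alone, where BCAR1 was added. The block changed no other member's call.

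Some differences of NEDD9 between the constructs, and of BCAR1, turned direction; that of BCAR1 in batch 2 stayed negative with any library left out (−0.11 to −0.053), and that in cIDR against FL stayed positive with the block (0.0094 to 0.059). NEDD9 in NCTAD against FL, −0.37, became 0.044 with the block, 0.092 with DESeq2 and the block, and 0.48 (0.46 with the block) without batch 2. For cIDR against FL, −0.37 became 0.063 with log2(TPM + 0.1) and 0.12 without batch 2, with or without the block; for cIDR against NCTAD, 0.0049 became −0.20 with the block, −0.0065 with DESeq2, −0.22 with DESeq2 and the block, and −0.36 (−0.34 with the block) without batch 2. With a library left out, with or without the block, these ranged from −0.71 to 0.80, −1.07 to 0.81 and −0.70 to 0.34. BCAR1 in NCTAD against WT became −0.061 and −0.063 with TPM (pseudocounts of 1 and 0.1) and −0.0016 (block −0.0059) without batch 2; in cIDR against WT −0.025, −0.026 and −0.017 (block −0.020); in NCTAD against FL −0.034 and −0.035; and in cIDR against NCTAD 0.035 and 0.036 with TPM, 0.0016 without the filter and 0.0063 with only 8 libraries. With a library left out, with or without the block, BCAR1 ranged from −0.084 to 0.0076 for FL, −0.049 to 0.055 for NCTAD and −0.037 to 0.057 for cIDR against WT, from −0.027 to 0.094 for NCTAD and −0.014 to 0.094 for cIDR against FL, and from −0.057 to 0.065 for cIDR against NCTAD. The cause of these turns was not tested.

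All genes called against WT numbered 2, 5 and 2 without the block, 20, 89 and 95 with it, 11, 17 and 8 with DESeq2, and 58, 168 and 156 with DESeq2 and the block. Low counts limit NEDD9 in WT, at 0 to 3 in 3 of 4 libraries, and CASS4 and EFS throughout.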
